A study of Homo sapiens with 6 samples.

Results

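The genes described here are the CCN family and 4 thrombospondins, 10 of the 58243 genes in the deposited count table. They are CYR61, CTGF, NOV, WISP1, WISP2 and WISP3, the older symbols of CCN1 to CCN6, and THBS1, THBS2, THBS3 and THBS4. They were found by symbol, and each had 1 row. COMP, a further thrombospondin gene, is not among them and was placed in the list of other matricellular genes. The families were selected on earlier results for the same 6 libraries, among them the fold changes of CYR61, CTGF and THBS1 between the groups, so every comparison of these 10 genes below is a description and not a test. Cells labelled Hep3B, a line derived from a human hepatocellular carcinoma, received either si-SNHG17-1, an siRNA that targets SNHG17 (a long noncoding RNA), or si-NC, the control siRNA. There were 3 libraries of total RNA per group, numbered as replicates 1 to 3 in the labels. All 6 came from the same line in DMEM with 10% FBS, a single siRNA stood for the knockdown, and neither its dose nor the harvest time is stated in the labels. Nothing says that replicates were separate cultures, so errors and p-values reflect how far these libraries differ, which may be technical only.

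CCN proteins and thrombospondins are matricellular: cells secrete them into the matrix, where they act on receptors and growth factors more than they build fibres. CCN proteins share an IGF-binding-protein-like module, a von Willebrand type C module, a thrombospondin type 1 repeat and a C-terminal cystine knot, which WISP2 lacks. Thrombospondins 1 and 2 carry type 1 repeats, while thrombospondins 3 and 4 do not. CYR61 and CTGF are textbook target genes of YAP and TAZ, coactivators that bind DNA through TEAD factors, and CTGF and THBS1 also respond to TGF-beta. In the liver CTGF and THBS1 are best known from fibrosis and vascular remodelling.

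The promoter windows of CTGF and THBS1, which were higher after si-SNHG17-1, and of THBS2, which was near 0 counts in both groups, are shown. All 3 contain the word bound by TEAD factors. They are RefSeq sequences of build GRCh38.p14, 250 bases before to 50 bases after the annotated start, written 5′ to 3′ on the gene's strand, with GGAATG and its reverse complement CATTCC in capitals. CTGF lies at chr6:131951323-131951622 on the minus strand, THBS1 at chr15:39580829-39581128 on the plus strand and THBS2 at chr6:169253797-169254096 on the minus strand.
CTGF: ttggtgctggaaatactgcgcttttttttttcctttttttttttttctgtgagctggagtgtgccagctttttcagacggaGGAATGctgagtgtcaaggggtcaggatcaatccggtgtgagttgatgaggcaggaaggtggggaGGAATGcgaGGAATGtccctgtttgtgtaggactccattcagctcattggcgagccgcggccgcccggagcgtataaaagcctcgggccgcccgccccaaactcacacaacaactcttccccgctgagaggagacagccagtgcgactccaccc
THBS1: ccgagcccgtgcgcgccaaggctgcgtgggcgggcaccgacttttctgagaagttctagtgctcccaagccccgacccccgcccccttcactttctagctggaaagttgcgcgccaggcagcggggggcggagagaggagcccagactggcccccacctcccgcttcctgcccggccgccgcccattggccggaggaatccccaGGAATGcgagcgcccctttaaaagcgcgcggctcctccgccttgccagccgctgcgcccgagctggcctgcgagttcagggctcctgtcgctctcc
THBS2: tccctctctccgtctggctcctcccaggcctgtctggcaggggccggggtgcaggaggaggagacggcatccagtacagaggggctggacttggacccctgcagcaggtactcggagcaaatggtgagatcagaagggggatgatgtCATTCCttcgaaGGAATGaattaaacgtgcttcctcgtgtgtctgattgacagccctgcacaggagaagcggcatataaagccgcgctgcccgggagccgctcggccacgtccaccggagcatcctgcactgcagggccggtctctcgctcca
CTGF held the word 3 times, with first bases 169, 104 and 95 bases upstream of the start. THBS1 held it once, 46 bases upstream, and THBS2 held it on each strand, 103 and 91 bases upstream. Of 35116 RefSeq windows of this length, 14.0% held the word at least once, 1.37% at least 2 times and 0.128% at least 3 times.

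Windows of WISP3, THBS3 and THBS4 were also in the RefSeq table, with 2 starts each for THBS3 and THBS4, while CYR61, NOV, WISP1 and WISP2 had no entry. WISP3, whose window is not shown, also held the TEAD word, 2 times, and no window of THBS3 or THBS4 held it. A search of both strands for the AP-1 word TGANTCA, the SMAD word GTCTAGAC and the CArG box of SRF found no match in any of these windows (7.71%, 0.202% and 1.29% of all windows held them). These matches describe letters only. Shorter or variant sites, such as a part of the SMAD word, were not searched, so a missing match does not show that a window lacks such sites. The TEAD word was found in windows of called genes (CTGF, THBS1) and of genes with hardly any counts (THBS2, WISP3).

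SNHG17 was lower in every si-SNHG17-1 library, at 307, 338 and 254 counts against 843, 953 and 948 in si-NC, and 35.2% of its CPM level was left (log2 fold change −1.51 ± 0.12 SE, with an adjusted p of 0.00101 from edgeR). Permuting the libraries exactly, two-sided, gave p = 0.1, the smallest that 3 against 3 libraries allow. Total counts were 30207055 to 42271168 per library. Of 18679 genes tested, 10.5% passed an edgeR adjusted p under 0.05, 5.25% as higher and 5.21% as lower in si-SNHG17-1. Hepatocyte markers were nearly absent: 8 of 10 stayed under 1 CPM (the count as a share of the TMM-scaled library size) in all libraries, TTR and GPC3 were at 0 counts, which allows up to 0.0977 CPM, and their summed level was 5.10 to 5.45 CPM in si-NC, against 5.47 to 6.41 in si-SNHG17-1. These marker levels do not bear out a hepatocyte identity, and the name Hep3B is used here only as the label gives it.

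Of the 10 genes, 8 passed the filter on low counts and could be fitted. CYR61, CTGF, NOV and THBS1 were called higher and WISP2 lower after si-SNHG17-1, against 5.25% and 5.21% of all genes tested, and THBS3, WISP3 and THBS4 were not called. WISP1 and THBS2 did not pass the filter. THBS4 passed it only through the si-SNHG17-1 libraries, where its counts were 10 or more, so the 8 are not a neutral sample of the families. WISP3 had 10 or more counts in every si-SNHG17-1 library and in si-NC replicates 2 and 3 (14 and 38). In bulk RNA, fewer cells of a type and less RNA per cell cannot be told apart.

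**Figure D1:**
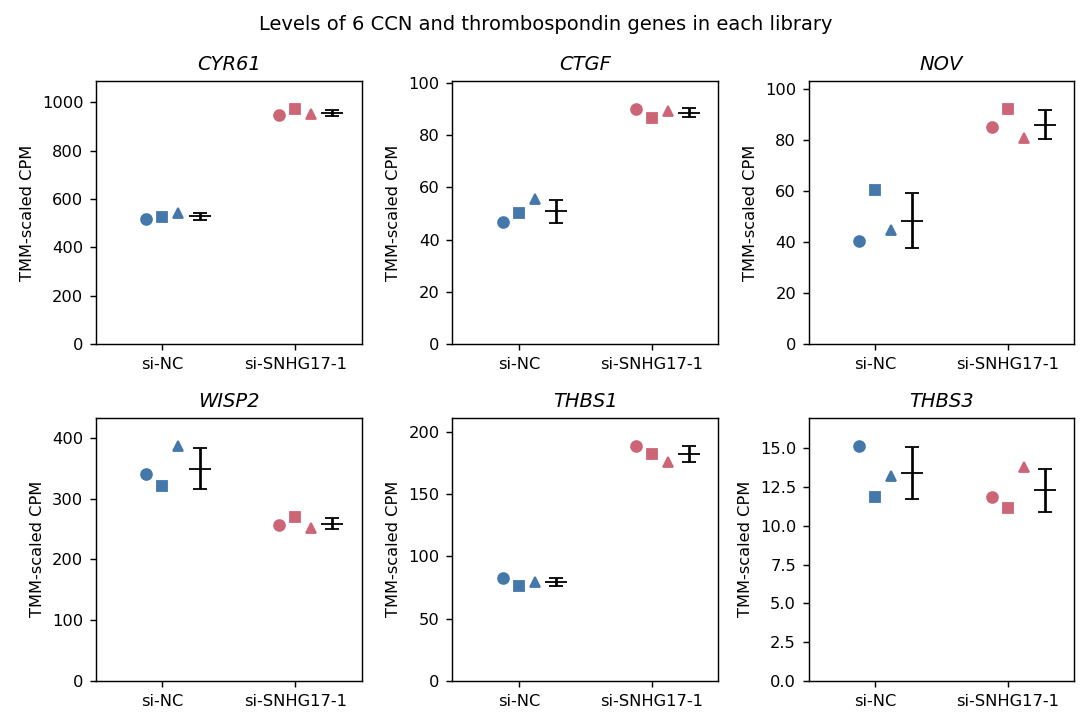
TMM-scaled CPM of 6 genes in each of the 6 libraries, with si-NC in blue, si-SNHG17-1 in red, marker shape for replicate number (circle 1, square 2, triangle 3) and black bars for the group mean ± SD (n = 3). CYR61, CTGF, NOV and THBS1 lie higher in all si-SNHG17-1 libraries, WISP2 lies lower in all of them, and the THBS3 groups overlap.

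CYR61 encodes CCN1, an integrin ligand induced within minutes by serum, and it was the most abundant of the 10. Its CPM values were 517, 526 and 542 in si-NC, against 949, 972 and 952 in si-SNHG17-1. The groups were far apart, and the lowest si-SNHG17-1 library stood 1.75 times above the highest si-NC library. The log2 fold change was 0.86 ± 0.05 SE, a 1.81-fold difference. The gene (ENSG00000142871.16) lies on chromosome 1 from 85580761 to 85583962 of GRCh38, and no exon of another gene overlaps its exons.

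CTGF encodes CCN2, which binds TGF-beta, BMPs and integrins. It was present at 46.6, 50.1 and 55.5 CPM in si-NC, against 89.8, 86.6 and 89.2 CPM in si-SNHG17-1. The groups did not overlap, and the coefficient of variation was 8.84% in si-NC and 1.94% in si-SNHG17-1. The log2 fold change was 0.80 ± 0.09 SE. Its gene (ENSG00000118523.5) lies on chromosome 6 from 131948176 to 131951373, on the minus strand. The antisense gene AL133346.1 overlaps 195 bases of its exons and had 125, 163 and 149 counts in si-NC, against 355, 285 and 211 in si-SNHG17-1. The labels do not state whether counting used strand, so part of either signal may belong to the other, but CTGF had 1756 to 3647 counts.

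CYR61 and CTGF had similar ratios to each other in both groups. Both were selected on their fold changes, so this likeness between the groups was partly given by the choice. Within the groups the genes did not always move together. In si-NC both were highest in replicate 3, but in si-SNHG17-1 replicate 2 CYR61 was highest (972 CPM) and CTGF lowest (86.6 CPM). Per kilobase of exon, CYR61 was 9.31 to 10.6 times as abundant as CTGF in si-NC, against 10.1 to 10.7 times in si-SNHG17-1. After each gene was centred on its own mean, their log2 CPM differed by a root mean square of 0.065 over the 6 libraries, which placed CTGF at rank 16 of 10655 genes by likeness to CYR61. Outside the families, the genes most like CYR61 were ERLIN1, an endoplasmic reticulum membrane protein (root mean square difference 0.026), BMP2, a bone morphogenetic protein (0.039), and TCF3, a helix-loop-helix transcription factor (0.043). Those most like CTGF were BCL7B, a subunit of SWI/SNF chromatin remodellers (0.040), TYW5, a tRNA-modifying enzyme (0.045), and TSC22D1, a transcriptional regulator (0.046). All 6 were higher after si-SNHG17-1, with log2 fold changes of 0.74 to 0.89, and that shared difference enters the measure.

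NOV encodes CCN3, a ligand of integrins and Notch1 that often acts against CTGF. It was present at 40.3, 60.6 and 44.6 CPM in si-NC, against 85.3, 92.2 and 81.0 in si-SNHG17-1. The groups did not overlap, but si-NC replicate 2 stood well above the other two si-NC libraries, and the coefficient of variation in si-NC was 22.0%. The log2 fold change was 0.83 ± 0.15 SE. The call was lost without si-NC replicate 3 (log2 fold change 0.77, edgeR adjusted p = 0.0654) and without si-SNHG17-1 replicate 1, 2 or 3 (0.84, 0.78 and 0.88, with adjusted p = 0.0731, 0.0758 and 0.0601). NOV (ENSG00000136999.4) lies on chromosome 8 from 119416306 to 119424353.

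WISP2 encodes CCN5, the member without the C-terminal knot, known for opposing growth and for its induction by oestrogen and Wnt signals. It went the other way, from 341, 321 and 387 CPM in si-NC to 256, 269 and 252 in si-SNHG17-1. Every si-SNHG17-1 library was below every si-NC library, although the highest of them reached 269 CPM against 321 in the lowest si-NC library. The log2 fold change was −0.43 ± 0.08 SE, and 78.1% of all called genes had a larger absolute change. The call was lost without si-SNHG17-1 replicate 1, 2 or 3 (log2 fold change −0.42, −0.45 and −0.40, with edgeR adjusted p = 0.0939, 0.0646 and 0.0885). WISP2 (ENSG00000064205.10) lies on chromosome 20 from 44714844 to 44728509.

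The remaining CCN genes were near or at the limit of detection. WISP3, which encodes CCN6, a protein linked to mitochondrial function and to a hereditary arthropathy, had 4, 14 and 38 counts in si-NC, against 41, 23 and 28 in si-SNHG17-1. The groups overlapped, with a wide spread inside si-NC, and the log2 fold change of 0.85 ± 0.76 SE was not called. WISP1, which encodes the Wnt-induced CCN4, had 0 counts in all 6 libraries, which allows up to 0.0712 to 0.0977 CPM per library at a limit of 3 counts, for counting error only. WISP3 (ENSG00000112761.20) lies on chromosome 6 from 112054072 to 112070969 and shares 193 exonic bases with TUBE1, a gene on the opposite strand with 644 to 928 counts. WISP1 (ENSG00000104415.13) lies on chromosome 8 from 133191039 to 133230344.

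THBS1 encodes thrombospondin 1, which binds CD36 and CD47 and activates latent TGF-beta. It had the largest change among the called members. Its CPM values were 82.5, 76.4 and 79.2 in si-NC, against 189, 182 and 176 in si-SNHG17-1. The lowest si-SNHG17-1 library stood 2.13 times above the highest si-NC library, and the coefficient of variation was 3.82% and 3.51% in the groups. The log2 fold change was 1.20 ± 0.07 SE, a 2.30-fold difference, and 11.6% of all called genes changed by more. THBS1 (ENSG00000137801.10) lies on chromosome 15 from 39581079 to 39599466. The antisense gene AC037198.2 overlaps 411 exonic bases and had 4, 2 and 3 counts in si-NC, against 37, 20 and 11 in si-SNHG17-1, and FSIP1, which overlaps 448 bases, had 6 to 24 counts, so both were small beside the 3108 to 7674 counts of THBS1. The genes most like THBS1 over the 6 libraries were CHST14, a dermatan sulfate sulfotransferase (root mean square difference 0.050), TRIB3, a stress-induced pseudokinase (0.059), and CTSL, the protease cathepsin L (0.066). These genes were also higher after si-SNHG17-1, with log2 fold changes of 1.11 to 1.24, and that shared difference enters the measure. CYR61 ranked 66 of 10655 genes by the same measure (0.178), but CYR61 and THBS1 were both selected on their fold changes.

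THBS3, a pentameric thrombospondin of skeletal tissue, did not follow THBS1. It was present at 15.2, 11.9 and 13.2 CPM in si-NC, against 11.9, 11.2 and 13.8 CPM in si-SNHG17-1. The groups overlapped, and the log2 fold change of −0.13 ± 0.16 SE was not called. Opposite-strand genes cover part of its exons: AC234582.1 shares 1027 bases, 22.2% of the exonic length, and had 105, 135 and 150 counts in si-NC, against 46, 69 and 38 in si-SNHG17-1, beside 424 to 571 counts of THBS3. MTX1 shares 146 bases and had 1122 to 1849 counts. How far these reads are mixed was not tested. THBS3 (ENSG00000169231.13) lies on chromosome 1 from 155195588 to 155209051.

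THBS2 and THBS4 were barely detected. THBS2, a fibroblast-associated inhibitor of angiogenesis, had 0, 16 and 0 counts in si-NC, against 8, 13 and 4 in si-SNHG17-1, with overlapping groups. THBS4, a thrombospondin of tendon and muscle, had 0, 8 and 5 counts in si-NC, against 24, 14 and 10 in si-SNHG17-1. Those THBS4 groups did not overlap, but the log2 fold change of 1.97 ± 0.98 SE was not called, and at so few counts a fitted fold change depends on the prior count. THBS2 (ENSG00000186340.14) lies on chromosome 6 from 169215780 to 169254044, and THBS4 (ENSG00000113296.14) on chromosome 5 from 79991311 to 80083287.

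**Figure D2:**
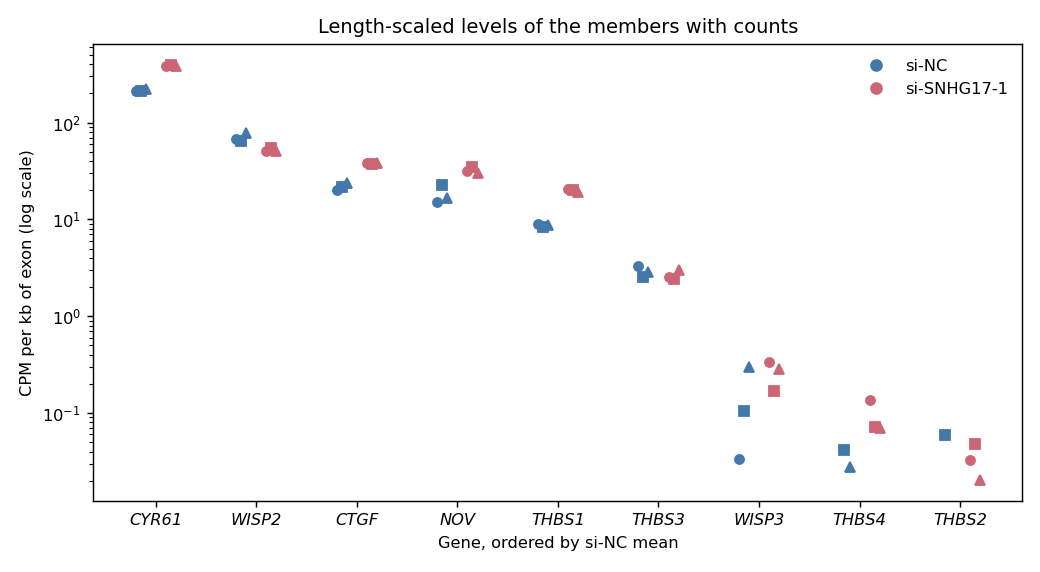
CPM per kilobase of exon on a log scale for the 9 members with counts, ordered by the si-NC mean, 1 point per library with si-NC in blue and si-SNHG17-1 in red (circle, square and triangle for replicates 1, 2 and 3); libraries at 0 counts are not drawn. The members span from 215 for CYR61 to 0.0199 for THBS2 in si-NC means.

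Scaled by exon length, the levels in si-NC fell into an order from CYR61, at 215 ± 5.26 CPM per kilobase of exon (SD, n = 3), to WISP2 at 70.2 ± 6.80, CTGF at 21.7 ± 1.92, NOV at 18.2 ± 3.99, THBS1 at 8.67 ± 0.331 and THBS3 at 2.90 ± 0.359. WISP3, THBS4 and THBS2 followed at 0.146, 0.0230 and 0.0199. CTGF (19.9 to 23.7) and NOV (15.1 to 22.7) overlapped in si-NC, as did WISP3 with THBS4 and THBS4 with THBS2, while the other steps were larger than the spread between libraries. Among 18619 tested genes with a gene model, CYR61 ranked 63 by mean level per kilobase, WISP2 674, CTGF 1784, NOV 2166, THBS1 4028 and THBS3 10604. In si-SNHG17-1 the order of the means of these 6 genes was the same, at 390, 52.0, 37.9, 32.2, 19.9 and 2.66 CPM per kilobase, and CTGF and NOV no longer overlapped.

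In both families the most abundant gene took a larger share after si-SNHG17-1, while WISP2 and THBS3 took smaller shares. These shares restate the levels given above and are not a separate result. The summed CCN level was 314, 323 and 339 CPM per kilobase of exon in si-NC, against 509, 521 and 507 in si-SNHG17-1. CYR61 made up 66.2% ± 0.985 of it in si-NC, against 76.1% ± 0.306 in si-SNHG17-1 (SD, n = 3 each). WISP2 made up 21.6% ± 1.48 and 10.1% ± 0.197, so that CYR61 was 2.84 to 3.32 times as abundant as WISP2 in si-NC, against 7.32 to 7.67 times in si-SNHG17-1. CTGF and NOV kept small shares, of 6.66% and 5.58% in si-NC, against 7.39% and 6.29% in si-SNHG17-1. The summed level of THBS1 to THBS4 was 12.3, 11.0 and 11.5 in si-NC, against 23.3, 22.4 and 22.3 in si-SNHG17-1. Of this sum THBS1 made up 74.7% ± 1.27 and 87.7% ± 1.35. The shares of WISP2 depend on the length used: with the longest transcript in place of all exons, WISP2 made up 31.8% in si-NC, against 16.1% in si-SNHG17-1, and CYR61 57.9% and 71.6%.

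**Figure D3:**
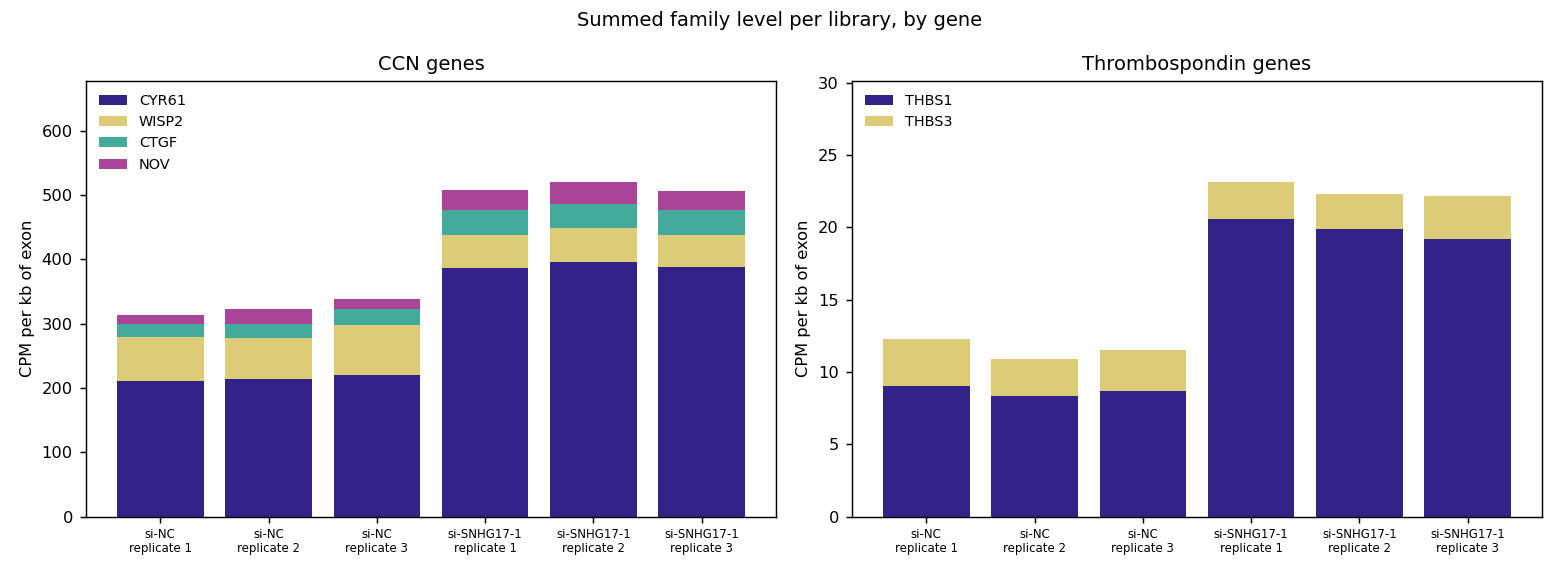
Stacked bars of CPM per kilobase of exon in each library for the CCN genes (left) and the thrombospondins (right), members under 1% of their family left out. CYR61 and THBS1 make up most of every bar, and the WISP2 and THBS3 segments take smaller shares in the si-SNHG17-1 libraries.

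Genes that take part in the same pathways were read from 8 lists, some of which share members. The share called in each list stands against 10.5% of all genes tested. The lists are small and were chosen with earlier results of these data known, so the shares are a description and not a test. Among 25 receptors of CCN proteins and thrombospondins, 23 were tested, 4 rose and none fell (17.4% called), and the median change on the log2 scale was 0.13, against −0.002 over all genes tested. SDC4, the heparan sulfate proteoglycan syndecan 4 that serves CYR61 and CTGF as a coreceptor, rose from 119 ± 4.03 to 217 ± 5.26 CPM (0.86 ± 0.07 SE on the log2 scale, edgeR adjusted p = 0.00100). CALR, a chaperone that also binds thrombospondin 1 at the cell surface, rose by 0.63 ± 0.07 SE (edgeR adjusted p = 0.00311). The other two rises, of CD47, a thrombospondin 1 receptor, and of LRP6, a Wnt coreceptor, reached edgeR adjusted p = 0.0446 and 0.0461. Of the 6 fits that omit a library, CD47 kept its call in 1 and LRP6 in 0, and both had their highest edgeR adjusted p (0.149 and 0.142) when si-SNHG17-1 replicate 3 was omitted. The integrin subunits ITGAV and ITGB5 were not called (0.18 ± 0.10 SE and −0.01 ± 0.08 SE). ITGA3, another integrin subunit, had a lower mean in si-SNHG17-1 but was not called (−0.50 ± 0.14 SE, edgeR adjusted p = 0.0610). Over the 13 alternatives, 0 to 1 receptors were called lower. CD36 was at 0.316 ± 0.319 CPM (SD) in si-NC, against 0.649 ± 0.096 CPM in si-SNHG17-1. At this low level it was not called (1.04 ± 1.02 SE on the log2 scale, edgeR adjusted p = 0.58).

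Regulators upstream of CYR61, CTGF and THBS1 came from 3 lists. Of 19 regulators of YAP, TAZ and TEAD, 2 rose and none fell, and the share called was that of all genes tested (10.5%). LATS2, the kinase that inactivates YAP and is itself a YAP target, rose from 57.9 ± 5.46 to 117 ± 5.88 CPM (1.02 ± 0.10 SE on the log2 scale, edgeR adjusted p = 0.00198), and VGLL4, a competitor of YAP for TEAD, rose by 0.84 ± 0.08 SE. YAP1 was not called (0.27 ± 0.10 SE, edgeR adjusted p = 0.148), nor were WWTR1, which encodes TAZ (−0.06 ± 0.10 SE), and TEAD1 (−0.34 ± 0.11 SE, edgeR adjusted p = 0.0829). Of 10 regulators of SRF and its MRTF coactivators, 3 rose and none fell (30.0% called): RHOB, a small GTPase (0.64 ± 0.09 SE), SRF itself (0.47 ± 0.07 SE) and DIAPH1, an actin-nucleating formin (0.36 ± 0.07 SE). DIAPH1 was called in 2 of the 6 fits that omit a library (highest edgeR adjusted p 0.0803, when si-SNHG17-1 replicate 2 was omitted). Of 17 TGF-beta ligands, receptors and SMADs, 2 rose and 1 fell (17.6% called). TGFBR3, the coreceptor betaglycan, rose by 0.87 ± 0.11 SE, and LTBP1, a latent TGF-beta binding protein, by 0.79 ± 0.12 SE, although LTBP1 lost its call without si-SNHG17-1 replicate 1 (edgeR adjusted p = 0.0515). LTBP3 was lower by −0.43 ± 0.11 SE and was called in 1 of those 6 fits (highest edgeR adjusted p 0.159, when si-SNHG17-1 replicate 3 was omitted). TGFB1 was not called (0.21 ± 0.07 SE). SMAD3 (−0.29 ± 0.08 SE, edgeR adjusted p = 0.0544) and SMAD6 (−0.33 ± 0.09 SE, edgeR adjusted p = 0.0562) had lower means but were not called either. Of the 17 genes, 10 had a positive log2 fold change. Over the 13 alternatives, 1 to 2 genes of this list were called higher and 0 to 3 lower.

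Other targets of YAP, SRF and SMADs moved in both directions. Of 30 tested, 5 rose and 3 fell (26.7% called, against 10.5% of all genes tested), and the median change was 0.12 on the log2 scale. ANKRD1, a muscle ankyrin repeat protein and YAP target, rose from 21.0 ± 3.30 to 40.4 ± 3.35 CPM (0.94 ± 0.15 SE, edgeR adjusted p = 0.00946), as did LATS2. CRIM1, a transmembrane protein with CCN-like cysteine-rich repeats, fell from 411 ± 27.7 to 231 ± 13.0 CPM (−0.83 ± 0.08 SE, edgeR adjusted p = 0.00198). AXL, a receptor tyrosine kinase and YAP target, was lower by −0.34 ± 0.07 SE. AXL and the remaining called genes of this list (EGR1, MYL9 and TAGLN higher, MYOF lower) were each called in 1 or 2 of the 6 fits that omit a library. Among those fits the list had 2 to 4 genes higher and 1 to 3 lower.

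Among 28 other matricellular genes 17 were tested, of which 4 rose and 1 fell (29.4% called, median −0.02). TNC, which encodes the migration-associated matrix protein tenascin C, rose from 5.28 ± 1.06 to 16.0 ± 1.74 CPM (1.60 ± 0.19 SE on the log2 scale, edgeR adjusted p = 0.00423). FBLN5, an elastic-fibre protein, rose by 0.85 ± 0.12 SE, and FBLN1, a basement-membrane fibulin, fell from 387 ± 11.2 to 289 ± 4.80 CPM (−0.42 ± 0.06 SE) but lost its call without si-SNHG17-1 replicate 1 (edgeR adjusted p = 0.0534). TNXB and FBLN7 also rose, and were called in 3 and 2 of the 6 fits that omit a library. Of 24 tested genes with thrombospondin type 1 repeats outside the families, 3 rose and 1 fell (16.7% called). RSPO3, a Wnt-enhancing R-spondin, rose by 1.05 ± 0.15 SE and ADAMTS1, a matrix metalloprotease, by 0.66 ± 0.10 SE. ADAMTS5 was higher (1.08 ± 0.23 SE) and ADAMTS10 lower (−0.96 ± 0.19 SE), and they were called in 1 and 2 of the 6 fits that omit a library. Of 5 tested IGF-binding proteins, whose module the CCN proteins share, IGFBP1 was called higher, from 0.988 to 2.46 CPM, and lost the call in all 6 such fits (highest edgeR adjusted p 0.155, when si-SNHG17-1 replicate 1 was omitted).

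Markers of matrix-producing and other cells were read beside these results. The summed level of 8 fibroblast markers was 183 to 200 CPM in si-NC, against 244 to 257 in si-SNHG17-1, most of it from COL1A1 and COL3A1. LUM was at 27.3 to 33.5 CPM in si-NC and 28.1 to 44.6 in si-SNHG17-1, DCN at 3.74 to 5.70 and 6.91 to 9.57, and PDGFRB, lower in si-SNHG17-1, at 7.94 to 8.38 and 5.67 to 7.55. COL1A2 and PDGFRA were at 0 counts in all 6 libraries, and THY1 stayed at or below 0.429 CPM. The sum of 8 endothelial markers was 3.30 to 5.18 and 8.11 to 9.40 CPM. CDH5 was at 1.16 to 2.47 CPM in si-NC and 5.14 to 6.80 in si-SNHG17-1, PECAM1 went the other way, with 1.01 to 1.96 CPM in si-NC against 0.419 to 0.902 in si-SNHG17-1, and KDR was at 0. The sum of 7 leukocyte markers was 34.4 to 40.0 and 42.7 to 61.5 CPM, nearly all of it CD68, while PTPRC stayed at or below 0.391 CPM. The sum of 6 platelet markers was 7.62 to 10.4 and 5.94 to 9.47 CPM, with PF4 and PPBP at 0. The labels give a single cell line, and these values do not show that such cells were present. Any link between these marker levels and the changes of the CCN genes and thrombospondins was not tested.

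**Figure D4:**
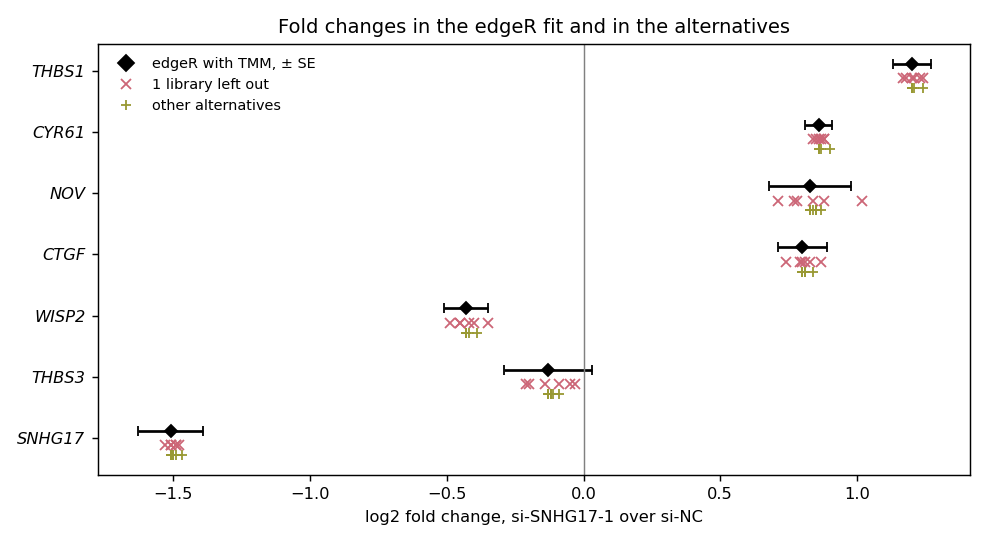
Log2 fold change (si-SNHG17-1 over si-NC) of 6 members and SNHG17, with the TMM-scaled edgeR fit as black diamonds ± SE, fits with 1 library left out as crosses and the other alternatives as plus signs. THBS1 stays between 1.17 and 1.24, CYR61 between 0.84 and 0.90, and no gene changes sign.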

How the data were processed

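Raw counts per gene, whole numbers for 6 libraries, were deposited by the authors in 1 table. Reads had been aligned with HISAT2 to GRCh38, per the submitters' processing notes, while counter, annotation and strand setting were not given in the sources used here. All 37 mitochondrial genes were listed at 0. Genes were kept by filterByExpr (minimum count 10, minimum total 15), scaled by TMM and compared with edgeR 4.0.16 in R 4.3.3 (quasi-likelihood F test, Benjamini-Hochberg adjustment over 18679 genes, called at an adjusted p under 0.05). This fit was also run on simulated counts in which every gene had the same spread setting. Real genes differ in spread, so that run does not give the error rate for these data. Each SE was obtained from the log2 fold change and its F statistic. Exon lengths (union of all exons) and overlaps came from GENCODE release 29, in which all 10 members were found, 8 with the same version. Likeness was searched over genes at a mean of 10 CPM or more, 10650 of them outside the families, on log2 CPM with a prior count of 2.

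Members and lists were chosen with earlier results of these data known. Named genes were the members, SNHG17, from each list up to 2 called genes per direction, ordered by adjusted p (the most abundant gene if the list had no call), and the 3 genes most like CYR61, CTGF and THBS1. The other list genes and the antisense partners were named after their values were seen. Some list genes are not reported here. Alternatives were median-of-ratios factors, total counts, other filters, DESeq2 1.42.0, limma-voom (limma 3.58.1), a replicate block and each library left out. No library was a copy of another (within groups, chi-square was 26.5 to 55.2 per degree of freedom).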

Additional observations from a re-analysis of the deposited data

How the results depend on the processing

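CYR61, CTGF and THBS1 kept their direction and call in all 13 alternatives, with log2 fold changes of 0.84 to 0.90, 0.74 to 0.87 and 1.17 to 1.24, and so did SNHG17 (−1.53 to −1.47). THBS3, WISP3 and THBS4 were called in none of the alternatives that gave them an adjusted p. With a library left out, NOV ranged from 0.71 to 1.02 and WISP2 from −0.49 to −0.35, the members called higher numbered 3 to 4 and those called lower 0 to 1, while over all genes 313 to 694 were higher and 264 to 705 lower. Without a filter 670 genes were higher and 627 lower, with DESeq2 1414 and 1375, and with total counts 1168 and 781 (59.9% of calls higher, against 50.2% with TMM). Same-numbered libraries did not deviate together (correlations of −0.017, −0.037 and −0.015 over genes), so the numbers were not taken as pairs. With a replicate block, 273 genes were higher and 259 lower, and 0 members were called lower, since WISP2 (−0.43) had an edgeR adjusted p of 0.0856. Of 29 called list genes, 13 were called in each of the 6 fits that omit a library and 10 in all 13 alternatives, and the difference was SRF, ANKRD1 and ADAMTS1, not called with the block. With the longest transcript as length, an alternative chosen in part after seeing the data, the order of levels in si-NC was the same, and WISP2 stood at 127 CPM per kilobase. WISP3, THBS2 and THBS4 had 0 to 41 counts per library, which limits the precision of their values.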
